A study of Mus musculus with 43 samples.

Results

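Retinas of male mice collected 14 days post laser (14 dpl) were compared between animals given short-chain fatty acids (SCFA) in the drinking water and animals given the laser lesion alone. The comparison used 6 of the 43 RNA sequencing libraries of the series, 3 of each group, chosen by their labels, and covered all 54532 genes of the count table, of which 16039 had enough counts to be tested. All animals were male C57BL/6J mice, 9 weeks old at the laser lesion, so that both groups carried laser-induced choroidal neovascularization (CNV) and no unlesioned retina entered the comparison. The SCFA group drank 67.5 mM sodium acetate, 40 mM sodium propionate and 25 mM sodium butyrate, from 3 weeks before the lesion until the tissue was collected. The g/L values that accompany these concentrations differ from them for propionate and butyrate, so that the doses of these salts remain uncertain. Each library was made from bulk RNA of 2 retinas pooled from different mice. In such tissue, fewer cells of a type and less RNA per cell cannot be told apart.

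In this model, the laser ruptures Bruch's membrane beneath the retinal pigment epithelium, and vessels grow from the choroid into the wound. The pigment epithelium recycles the visual chromophore through the retinoid cycle, takes up shed photoreceptor discs and forms the outer blood-retina barrier. Acetate, propionate and butyrate are products of bacterial fermentation in the gut. They act on G protein-coupled receptors, enter cells through monocarboxylate transporters, serve as fuel by way of acetyl-CoA, and butyrate in particular inhibits histone deacetylases.

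The libraries held 16148737 to 18972265 counted reads, with a median of 16855527 and with higher totals in all 3 SCFA libraries. Values per library are CPM (read counts scaled to the size of the library) on the TMM scale, given for replicates 1, 2 and 3 in that order. A gene passed the test, and is said to have risen or fallen, at an adjusted p under 0.1 by edgeR's quasi-likelihood test (n = 3 per group), and a differentially expressed gene (DEG) also had an absolute log2 fold change over 1. Fold changes are SCFA over control and stand with their standard error. The first principal component held 55.0% of the variance and separated the groups, with scores of -28.2, -23.1 and -14.1 for the controls and 41.4, 2.15 and 21.9 for the SCFA libraries. SCFA replicate 2 lay nearest to the controls on this axis. Markers of rods, Müller glia, bipolar, amacrine and ganglion cells were present in all 6 libraries, among them *Glul* of Müller glia with 2766, 2726 and 2779 CPM in the controls and 2719.8, 2622 and 2535 CPM with SCFA.

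**Figure D1:**
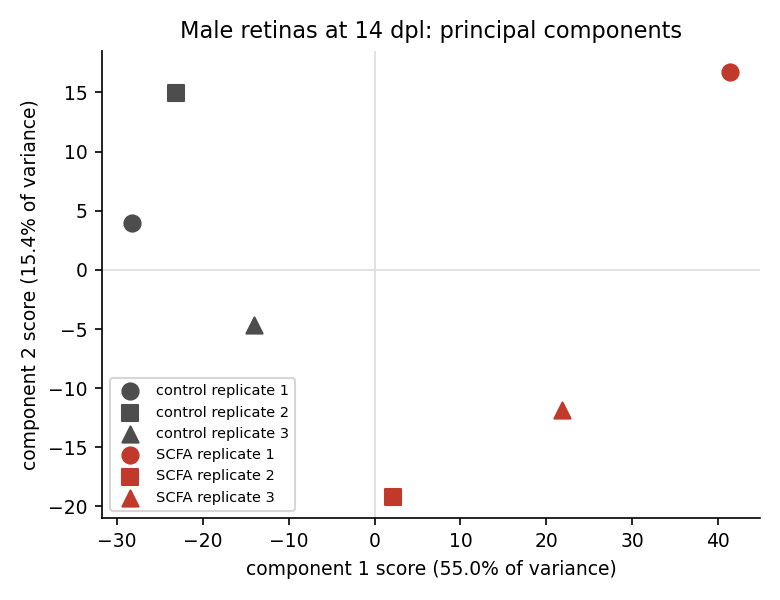
Scores of the 6 male libraries at 14 dpl on the first and the second principal component of log2 CPM, with the share of variance on each axis. Controls are grey and SCFA libraries red, and the symbol gives the replicate. The controls lie between -28.2 and -14.1 on the first component and the SCFA libraries between 2.15 and 41.4.

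Of the genes tested, 1931 rose with SCFA (12%) and 2021 fell (12.6%), and 229 of the higher (1.43%) and 121 of the lower (0.754%) were DEGs, 350 in all (2.18%). All 3 SCFA libraries were below all 3 controls for 3046 genes (19.0%) and above them for 2728 (17.0%). These shares are the background for each list of genes below. Complement and antigen presentation, interferon and cytokines, bipolar cells, and VEGF and hypoxia had called shares below this background in both directions. The same held for BMP and TGF-beta, transmitter receptors, cell division genes and clustered protocadherins. The counts rest on the spread within these 6 libraries. When the spread was pooled over all 12 groups and 43 libraries in a single fit, 31 DEGs were higher and 17 lower, or 130 and 65 with the run of columns of the table as a block. Over all 41 lists 305 calls of members were made, against 19 calls in 11 lists in that single fit and 88 calls in 33 lists with the block. Leaving out control replicate 2 left 109 calls, and leaving out SCFA replicate 2 gave 415. The share of members of each list that rose or fell is shown in the chart of gene lists. Ganglion cell, lens and immediate early genes had the highest shares of lower members, and nuclear-retained RNAs and mitochondrial mRNAs the highest shares of higher members.

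**Figure D2:**
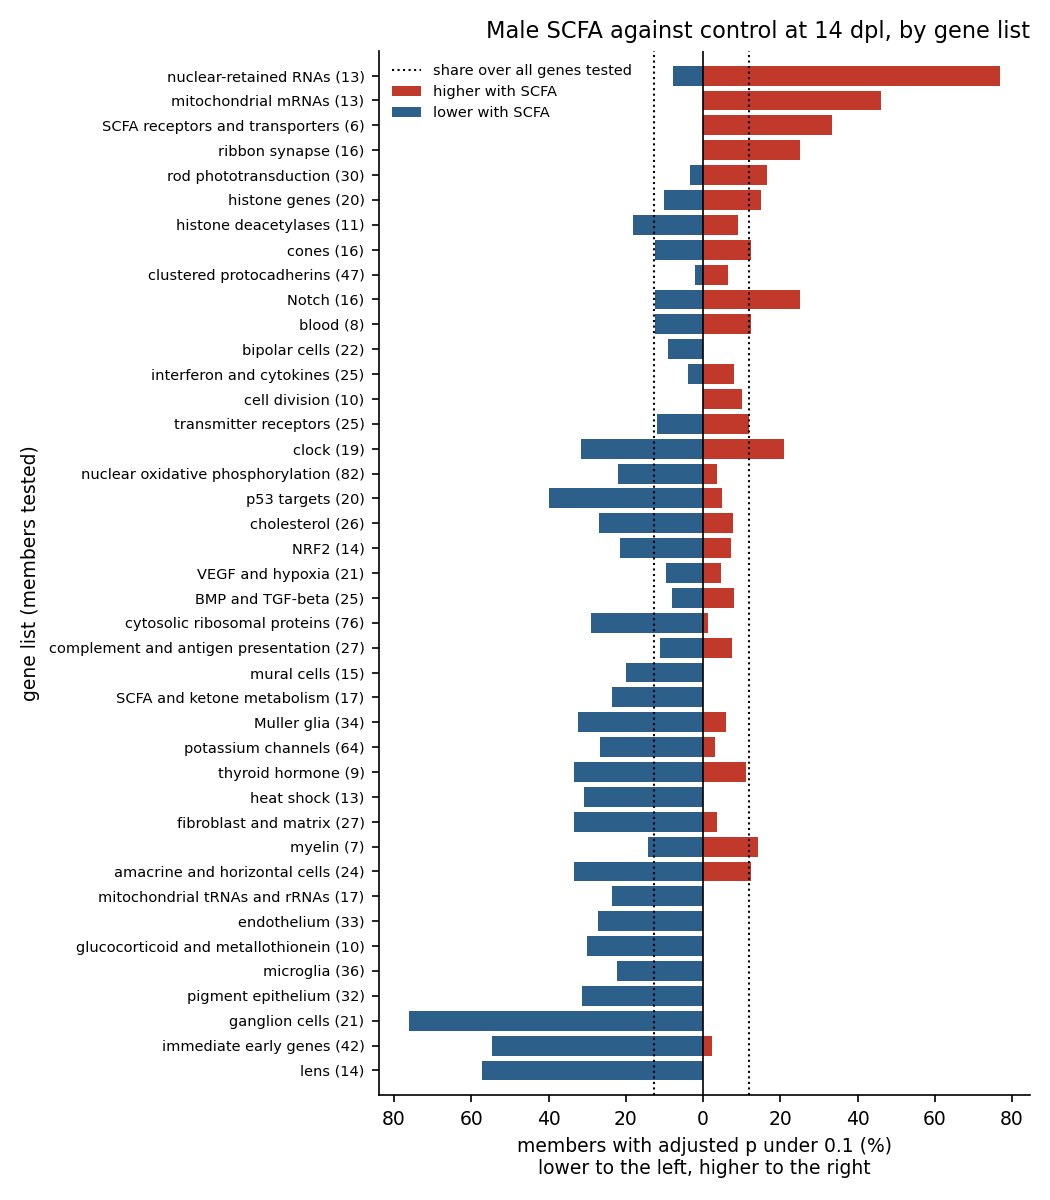
Share of the tested members of each gene list that rose (red, to the right) or fell (blue, to the left) with SCFA at an adjusted p under 0.1, in percent, ordered by the median log2 fold change of the list, with the number of members tested in parentheses. Dotted lines mark the shares over all genes tested, 12% higher and 12.6% lower. 16 of 21 ganglion cell genes fell and 10 of 13 nuclear-retained RNAs rose.

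The changes followed the base composition and length of the transcripts. Among protein-coding genes, the quintile with the lowest GC content had a median log2 fold change of 0.17, with 742 genes higher and 127 lower, and the quintile with the highest GC content a median of -0.18, with 82 higher and 727 lower. The quintile with the longest transcripts had 664 genes higher and 206 lower, and the shortest quintile 133 higher and 516 lower. The library medians by quintile were steepest for SCFA replicate 1 and control replicate 2 (GC content) and lay closest to 0 for SCFA replicate 2. For this reason each list was also counted after the GC trend of each library had been removed, which left 1499 genes higher and 1626 lower. The part of the GC trend in the results was tested only by this alternative.

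**Figure D3:**
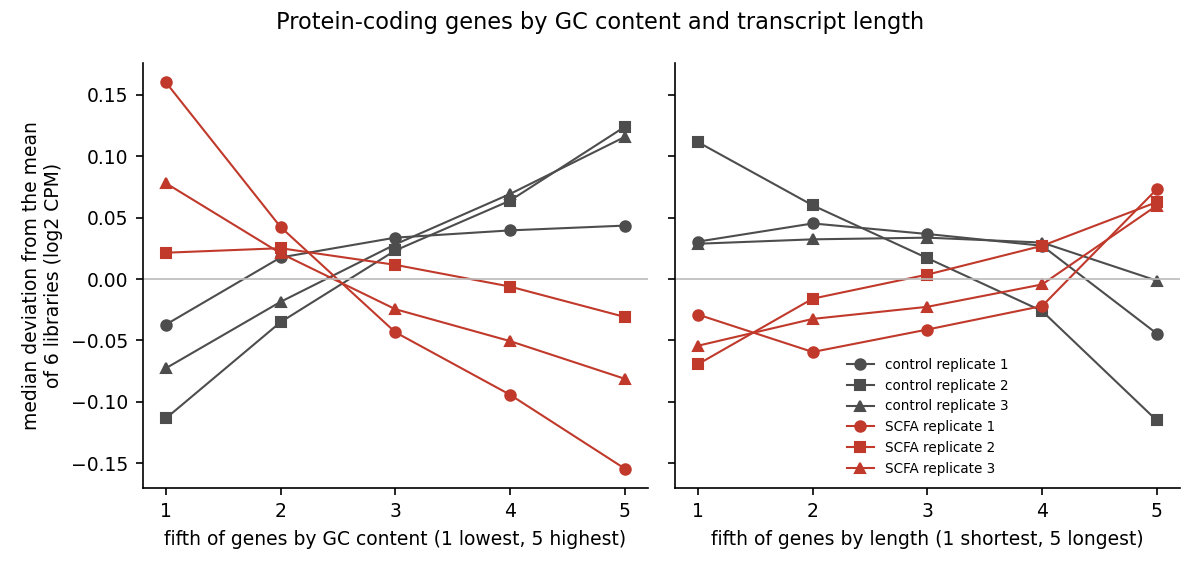
Median deviation of protein-coding genes from the mean of the 6 libraries, in log2 CPM, for quintiles of the genes by GC content (left) and by length (right) of the longest transcript. Each line is a library, grey for control and red for SCFA. In the highest GC quintile the controls lie between 0.0435 and 0.124 and the SCFA libraries between -0.154 and -0.0308.

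Genes of the pigment epithelium fell in part with SCFA. Of 35 members, 32 were tested, 10 fell and 0 rose, and the median log2 fold change was -0.49 against 0.003 over all genes tested. By role, 6 of 10 genes of the retinoid cycle fell, 4 of 15 tested genes of epithelial structure and transport fell, and 0 of 7 tested pigment genes passed the test. The bases before the start of *Rpe65*, *Lrat*, *Rdh5* and *Rgr*, 4 retinoid cycle genes that were DEGs together, are taken from RefSeq on GRCm38.p6, with the motifs TAATCC (core of OTX and CRX sites), CACGTG and CACATG (E-boxes) in capitals on either strand.
Rpe65, chr3:159598931-159599180, plus strand: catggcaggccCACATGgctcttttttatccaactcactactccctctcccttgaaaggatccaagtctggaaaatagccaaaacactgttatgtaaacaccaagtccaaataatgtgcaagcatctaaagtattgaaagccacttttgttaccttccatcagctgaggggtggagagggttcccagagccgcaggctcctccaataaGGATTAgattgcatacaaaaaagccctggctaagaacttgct
Lrat, chr3:82903975-82904224, minus strand: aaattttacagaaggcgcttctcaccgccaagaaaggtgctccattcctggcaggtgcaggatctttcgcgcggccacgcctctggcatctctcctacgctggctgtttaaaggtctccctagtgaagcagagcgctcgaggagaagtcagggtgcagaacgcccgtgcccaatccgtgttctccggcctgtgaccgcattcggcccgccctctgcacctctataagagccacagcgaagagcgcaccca
Rdh5, chr10:128919298-128919547, minus strand: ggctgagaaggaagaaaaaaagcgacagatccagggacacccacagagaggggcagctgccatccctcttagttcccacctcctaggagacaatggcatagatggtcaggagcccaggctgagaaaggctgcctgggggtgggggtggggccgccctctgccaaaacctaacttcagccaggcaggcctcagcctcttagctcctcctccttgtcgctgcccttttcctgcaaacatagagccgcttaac
Rgr, chr14:37049015-37049264, minus strand: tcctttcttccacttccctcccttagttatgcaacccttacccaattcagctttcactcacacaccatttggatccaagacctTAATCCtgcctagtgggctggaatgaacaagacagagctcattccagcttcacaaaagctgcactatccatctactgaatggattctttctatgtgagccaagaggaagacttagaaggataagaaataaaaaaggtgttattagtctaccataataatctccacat

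The *Rpe65* window held TAATCC (as GGATTA) once and CACATG once, the *Rgr* window held TAATCC once, and the *Lrat* and *Rdh5* windows held none of these letters. Of the 250 bases before the start of 11620 tested genes with an entry in the RefSeq table, 6.62% held TAATCC, 9.54% CACGTG and 9.18% CACATG. Among 24 pigment epithelium genes with an entry, 6 held TAATCC, 1 CACGTG and 8 CACATG. Among the 8 of them that fell with SCFA, 2 held TAATCC, 0 CACGTG and 1 CACATG. A match is a description of the letters and no evidence of binding.

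*Rpe65*, the isomerohydrolase of the retinoid cycle, had 55.1, 27.6 and 40.5 CPM in the controls and 16.6, 9.13 and 14.8 CPM with SCFA (log2 fold change -1.60 ± 0.24, adjusted p = 0.00670). *Lrat*, which esterifies retinol, had 25.4, 8.73 and 13.3 CPM in the controls and 7.91, 6.07 and 5.63 CPM with SCFA (log2 fold change -1.27 ± 0.31, adjusted p = 0.0215). *Rgr*, an opsin of the pigment epithelium and Müller glia, had 165, 71.2 and 112 CPM in the controls and 59.7, 39.4 and 53.7 CPM with SCFA (log2 fold change -1.19 ± 0.24, adjusted p = 0.0125). For all of them the SCFA libraries lay below the controls, with control replicate 1 the highest and control replicate 2 the lowest of the controls. *Rdh5*, which oxidizes 11-cis retinol, had 47.4, 22.1 and 33.7 CPM in the controls and 18.6, 12.03 and 18.6 CPM with SCFA (log2 fold change -1.07 ± 0.24, adjusted p = 0.0167). *Stra6*, the receptor for retinol-binding protein, had 19.3, 11.4 and 14.4 CPM in the controls and 6.27, 8.40 and 11.4 CPM with SCFA (log2 fold change -0.79 ± 0.23, adjusted p = 0.0384). SCFA replicate 2 was the lowest library for *Rpe65*, *Rgr* and *Rdh5*. Of the genes for epithelial structure and transport, *Ttr*, which carries thyroxine and retinol-binding protein, had 259, 131 and 200.3 CPM in the controls and 114, 60.02 and 115 CPM with SCFA (log2 fold change -1.03 ± 0.25, adjusted p = 0.0203). *Slc16a8*, the lactate transporter of the pigment epithelium, and *Krt8*, a keratin, also fell, with overlapping libraries (log2 fold changes -0.87 and -1.23), and *Col8a1*, a collagen of Bruch's membrane, fell without overlap (log2 fold change -0.80).

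Other genes of the same epithelium were not called. *Rlbp1*, also expressed by Müller glia, had 642, 622 and 592 CPM in the controls and 632, 477 and 503 CPM with SCFA (log2 fold change -0.20 ± 0.12, adjusted p = 0.256). *Otx2*, a transcription factor of photoreceptors and pigment epithelium, had 259.5, 263 and 269.6 CPM in the controls and 307, 232 and 293 CPM with SCFA (log2 fold change 0.07 ± 0.11, adjusted p = 0.706). The melanin genes *Dct* and *Pmel* had log2 fold changes of -0.78 and -0.74 (adjusted p = 0.108 and 0.146) and were highest in control replicate 3, an order of libraries different from that of *Rpe65*. Without SCFA replicate 3 *Dct* passed (adjusted p = 0.0358), as did *Rlbp1* without SCFA replicate 1 (adjusted p = 0.0408), both as lower. *Mitf*, a regulator of pigment cells, had 6.36, 5.22 and 4.79 CPM in the controls and 7.80, 6.64 and 6.32 CPM with SCFA. The summed CPM of all 35 members was 1679 to 2127 in the controls and 1309 to 1661 with SCFA, and their share of all counts 0.191% ± 0.022 (SD, n = 3) against 0.150% ± 0.017 (two-sided exact permutation test, p = 0.1, the smallest that 3 against 3 can give). Over the counts without mitochondrial genes the shares were 0.203% ± 0.023 and 0.161% ± 0.021, SCFA replicate 1 lay above control replicate 2, and p was 0.2. The neural retina lacks this epithelium, and how much of it came along with each retina was not tested. With the GC trend removed 13 members fell. The count of 10 was 6 without control replicate 1, and the single fit gave 0, or 1 with the run of columns as a block.

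**Figure D4:**
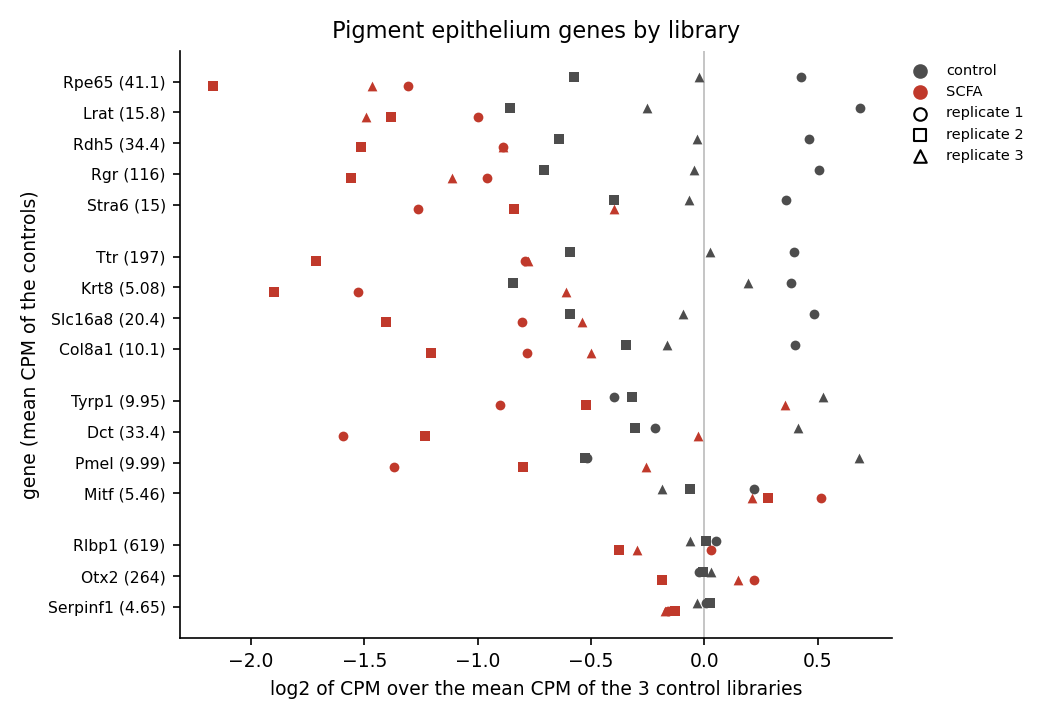
CPM of each library over the mean of the 3 controls, on a log2 scale, for retinoid cycle genes (top), epithelial genes, melanin genes and genes not called (bottom). Controls are grey, SCFA libraries red, symbols give the replicate, and the mean CPM of the controls stands after each gene. The 3 SCFA libraries lie left of the controls for *Rpe65*, *Lrat*, *Rdh5* and *Rgr*, and overlap the controls for *Tyrp1* and *Otx2*.

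Lens genes also fell in part. Whether their reads came from lens tissue left on a retina or from the retina itself was not tested. Of 22 members 14 were tested and 8 fell, of which *Cryab*, a crystallin that glia and neurons also express, and *Bfsp1*, a fibre cell filament, fell without overlap of the libraries. *Cryaa*, the alpha A crystallin, had 66.7, 14.7 and 71.3 CPM in the controls and 1.76, 24.3 and 13.9 CPM with SCFA, so that control replicate 2 lay within the range of the SCFA libraries. Crystallins took 0.0251%, 0.00961% and 0.0301% of the counts in the controls and 0.00519%, 0.0132% and 0.00957% with SCFA (exact permutation p = 0.2). The number of lens genes that fell was 1 without control replicate 1 or control replicate 3, 13 without SCFA replicate 2 and 2 without SCFA replicate 3, and 2 with DESeq2. SCFA replicate 2 was the highest SCFA library for *Cryaa* and the lowest for *Rpe65*.

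Ganglion cells, whose axons form the optic nerve, gave the highest share of lower genes among the cell types of the neural retina. Of 21 members, all tested, 16 fell and 0 rose, the median log2 fold change was -0.50, and the libraries of the groups did not overlap for 16 members that were lower. *Isl2*, a transcription factor of ganglion cells, had 11.04, 9.83 and 9.52 CPM in the controls and 4.75, 6.30 and 5.68 CPM with SCFA (log2 fold change -0.86 ± 0.17, adjusted p = 0.0125). *Nrn1*, which promotes neurite growth, had 52.5, 50.1 and 43.5 CPM in the controls and 16.9, 36.6 and 25.8 CPM with SCFA (log2 fold change -0.88 ± 0.20, adjusted p = 0.0184). SCFA replicate 2 was the highest of the SCFA libraries for these genes, and the groups did not overlap. The neurofilament genes fell in parallel, *Nefh* with 137, 147 and 130.0 CPM in the controls and 59.4, 108 and 84.5 CPM with SCFA (log2 fold change -0.71 ± 0.17, adjusted p = 0.0182), *Nefm* with a log2 fold change of -0.69 and *Nefl* with -0.44. *Thy1*, a surface glycoprotein of ganglion cells, had 279, 325 and 249 CPM in the controls and 179, 235 and 190.2 CPM with SCFA (log2 fold change -0.50 ± 0.13, adjusted p = 0.0253). *Tubb3*, the neuronal tubulin, had 226, 274 and 208 CPM in the controls and 175, 179 and 159 CPM with SCFA (log2 fold change -0.46 ± 0.11, adjusted p = 0.0225). Log2 fold changes were -1.01 for *Pou4f3*, -0.72 for the glutamate transporter *Slc17a6*, -0.61 for the nicotinic subunit *Chrna6*, -0.51 for the growth cone protein *Gap43*, -0.39 for *Sncg* and -0.35 for the RNA-binding protein *Rbpms*.

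The POU factors that specify most ganglion cells were not called. *Pou4f1* had 43.9, 45.5 and 38.3 CPM in the controls and 29.6, 45.4 and 34.8 CPM with SCFA (log2 fold change -0.22 ± 0.14, adjusted p = 0.316). *Pou4f2* had 17.96, 13.8 and 9.82 CPM in the controls and 13.1, 13.9 and 13.6 CPM with SCFA (log2 fold change -0.03 ± 0.19, adjusted p = 0.923). *Opn4*, the melanopsin of intrinsically photosensitive cells, had 4.55, 5.47 and 5.62 CPM in the controls and 2.29, 4.48 and 4.18 CPM with SCFA (adjusted p = 0.189). Without SCFA replicate 2 *Pou4f1* and *Opn4* passed as lower (adjusted p = 0.0251 and 0.0786). The summed CPM of the list was 1973 to 2378 in the controls and 1347 to 1888 with SCFA. With the GC trend removed 14 members fell. The count of 16 was 10 without control replicate 1, 3 without control replicate 2 and 6 without SCFA replicate 3, 1 in the single fit and 9 with the run of columns as a block.

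Amacrine and horizontal cells, the interneurons of the inner and outer retina, had 8 lower and 3 higher genes among 24 tested (25 members). *Calb2*, a calcium buffer of amacrine and ganglion cells, had 473, 553 and 427 CPM in the controls and 212, 354 and 259.7 CPM with SCFA (log2 fold change -0.81 ± 0.16, adjusted p = 0.0129). *Tac1*, a tachykinin precursor, had 32.7, 25.1 and 25.02 CPM in the controls and 11.3, 21.8 and 14.1 CPM with SCFA (log2 fold change -0.81 ± 0.20, adjusted p = 0.0237). The GABA enzymes moved in opposite directions, *Gad1* with 233, 204 and 203 CPM in the controls and 169, 179 and 173 CPM with SCFA (log2 fold change -0.30 ± 0.10, adjusted p = 0.0550) and *Gad2* with 32.1, 26.9 and 24.8 CPM in the controls and 35.8, 35.3 and 37.3 CPM with SCFA (log2 fold change 0.37 ± 0.12, adjusted p = 0.0497). *Slc32a1*, the vesicular GABA and glycine transporter, and *Slc6a5*, the glycine transporter, fell (log2 fold changes -0.47 and -0.57), and *Slc17a8*, the glutamate transporter of a subset of amacrine cells, rose by 0.85. *Calb1* of horizontal cells fell by 0.35 on the log2 scale. The count of 8 was 4 without control replicate 1, 3 without control replicate 2 and 1 without SCFA replicate 3, and the count of 3 was 1 without control replicate 1 or SCFA replicate 3 and 0 without control replicate 2. Bipolar cells, which pass the photoreceptor signal on, had 2 lower genes among 22 tested, *Bhlhe23* with 32.2, 33.7 and 37.7 CPM in the controls and 17.5, 22.6 and 25.1 CPM with SCFA (log2 fold change -0.67 ± 0.14, adjusted p = 0.0137) and *Scgn* (log2 fold change -0.33 ± 0.13, adjusted p = 0.0989). Leaving out any library but SCFA replicate 3 left 1 of them. The bipolar genes that rose were 0, against 4 without control replicate 3 and 2 without SCFA replicate 2.

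Endothelial genes had 9 lower and 0 higher members among 33 tested (35 members), with a median log2 fold change of -0.34. The genes that fell did not include *Cldn5*, *Cdh5* and *Pecam1*. *Nos3*, the endothelial nitric oxide synthase, had 8.17, 9.09 and 9.76 CPM in the controls and 4.75, 5.73 and 5.14 CPM with SCFA (log2 fold change -0.79 ± 0.17, adjusted p = 0.0153). *Plvap*, a protein of fenestrated and leaky endothelium, had 8.55, 10.3 and 10.8 CPM in the controls and 5.74, 6.01 and 6.06 CPM with SCFA (log2 fold change -0.73 ± 0.16, adjusted p = 0.0172). *Dll4*, the Notch ligand of tip and arterial cells, had 1.93, 2.89 and 3.08 CPM in the controls and 0.997, 1.13 and 1.23 CPM with SCFA (log2 fold change -1.23 ± 0.31, adjusted p = 0.0234). The libraries of the groups did not overlap for these genes. *Ccm2l* and *Vwf* fell by 1.42 and 0.86 on the log2 scale, with SCFA replicate 2 highest among the SCFA libraries. By contrast *Cldn5*, a tight junction protein, had 18.5, 23.04 and 15.2 CPM in the controls and 15.01, 30.2 and 12.6 CPM with SCFA (log2 fold change 0.03 ± 0.27, adjusted p = 0.958). *Cdh5*, vascular endothelial cadherin, had 5.93, 5.78 and 4.38 CPM in the controls and 4.63, 7.89 and 4.72 CPM with SCFA (log2 fold change 0.10 ± 0.24, adjusted p = 0.806). *Pecam1* had 14.3, 12.04 and 11.2 CPM in the controls and 9.44, 12.5 and 10.6 CPM with SCFA (log2 fold change -0.21 ± 0.16, adjusted p = 0.390). SCFA replicate 2 was the highest of all libraries for *Cldn5* and *Cdh5*. Without it both had negative log2 fold changes, -0.46 (adjusted p = 0.0708) for *Cldn5*, which then passed as lower, and -0.20 (adjusted p = 0.556) for *Cdh5*. The summed CPM of the list overlapped between the groups, 666 to 695 in the controls and 560 to 707 with SCFA. The count of 9 was 3 without control replicate 1 or SCFA replicate 3, 2 without control replicate 2 and 14 without SCFA replicate 2, 6 with the GC trend removed and 1 in the single fit.

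Mural cells, the pericytes and smooth muscle that wrap vessels, had 3 lower and 0 higher genes among 15 tested (19 members), all 3 of them DEGs. *Kcnj8*, the pore of the ATP-sensitive potassium channel of pericytes, had 4.43, 5.71 and 5.44 CPM in the controls and 1.99, 2.04 and 2.20 CPM with SCFA (log2 fold change -1.32 ± 0.23, adjusted p = 0.00790) and was called under all 17 alternatives. *Acta2*, smooth muscle actin, had 8.42, 8.17 and 6.45 CPM in the controls and 1.88, 4.82 and 3 CPM with SCFA (log2 fold change -1.24 ± 0.28, adjusted p = 0.0173). *Cspg4*, the NG2 proteoglycan, had 2.43, 3.01 and 3.14 CPM in the controls and 1.17, 1.53 and 1.18 CPM with SCFA (log2 fold change -1.14 ± 0.29, adjusted p = 0.0233). *Pdgfrb*, the pericyte receptor for platelet-derived growth factor, had 9.92, 12.1 and 15.9 CPM in the controls and 11.8, 12.03 and 11.5 CPM with SCFA (log2 fold change -0.10 ± 0.17, adjusted p = 0.721), and *Rgs5* a log2 fold change of -0.19 (adjusted p = 0.227). The summed CPM of the list was 1416 to 1472 in the controls and 1286 to 1559 with SCFA. The 3 calls were not lowered by leaving out a library except control replicate 2, without which 2 were made. In the single fit 1 call was made, and also 1 with the run of columns as a block.

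**Figure D5:**
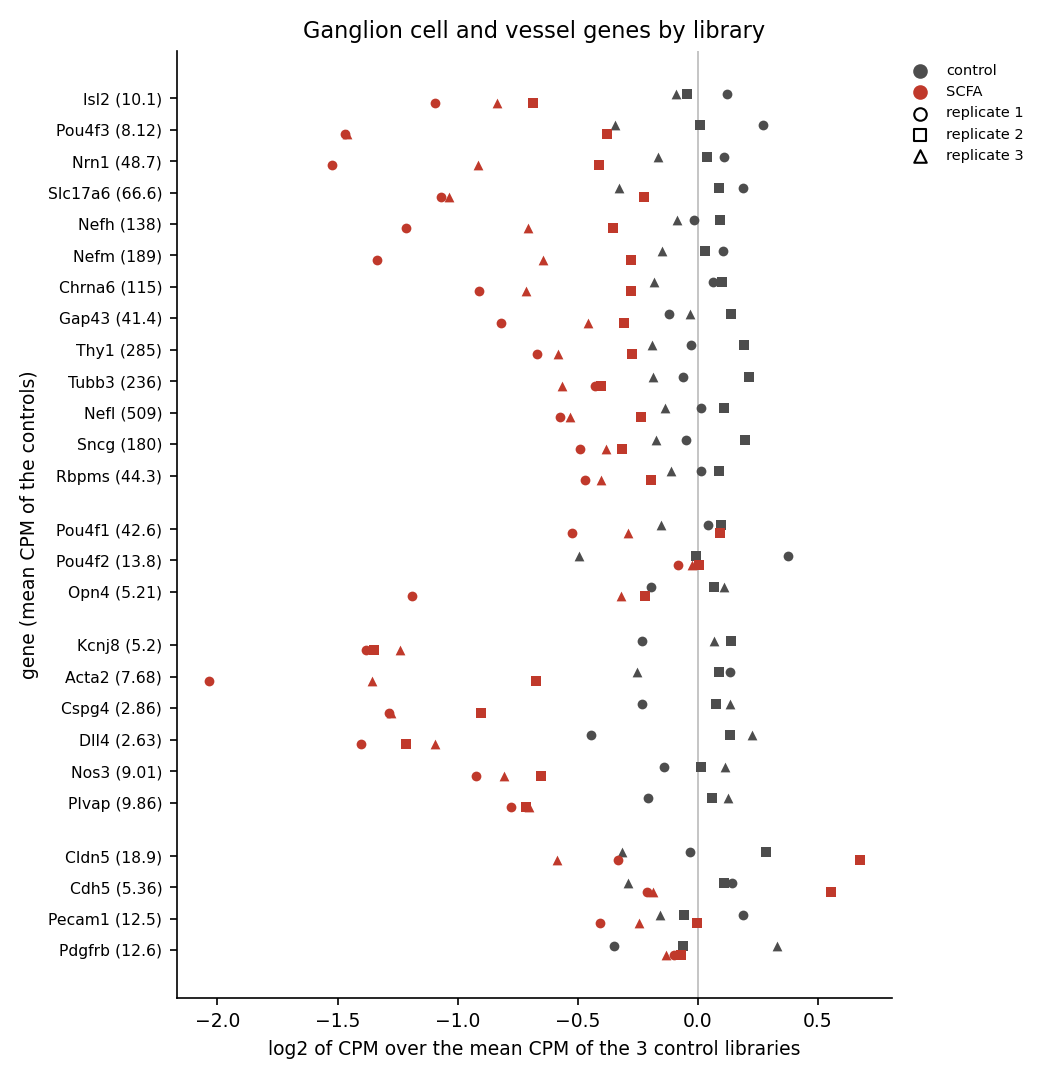
CPM of each library over the mean of the 3 controls, on a log2 scale, for ganglion cell genes that fell, ganglion cell genes not called, vessel genes that fell and vessel genes not called, from top to bottom. Controls are grey, SCFA libraries red, symbols give the replicate, and the mean CPM of the controls stands after each gene. For *Kcnj8*, *Nos3* and *Plvap* the SCFA libraries cluster below the controls, while for *Cldn5* and *Cdh5* SCFA replicate 2 lies above them.

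Among collagens, 1 of 10 rose and 0 fell, and among matrix proteins and their enzymes 9 of 17 tested fell and 0 rose. The difference between these roles was not tested. *Adamts1*, a matrix protease, had 35.99, 28.3 and 23.96 CPM in the controls and 14.7, 17.2 and 18.3 CPM with SCFA (log2 fold change -0.81 ± 0.16, adjusted p = 0.0110). *Fn1*, fibronectin, had 45.3, 39.3 and 41 CPM in the controls and 22.9, 36.2 and 22.7 CPM with SCFA (log2 fold change -0.62 ± 0.16, adjusted p = 0.0273). *Tnc*, *Timp2*, *Thbs1*, *Fap* and *Adamts4* fell by 0.45 to 1.39 on the log2 scale. *Col1a1* rose from a low level, with 0.561, 0.737 and 0.592 CPM in the controls and 2.17, 0.681 and 1.98 CPM with SCFA (log2 fold change 1.34 ± 0.45, adjusted p = 0.0635), in 2 of 3 SCFA libraries. Its call was lost in the single fit and on leaving out any library but SCFA replicate 2 (adjusted p = 0.133 to 0.208). The basement membrane collagens *Col4a1* and *Col4a2* had log2 fold changes of 0.20 and 0.08 (adjusted p = 0.465 and 0.795), and *Col4a1* passed as higher without control replicate 3 (adjusted p = 0.0595). The count of 9 was 2 without control replicate 1 or SCFA replicate 3, 3 without control replicate 2 and 5 without control replicate 3.

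Among the factors that act on vessels, 1 of 21 VEGF and hypoxia genes rose and 2 fell. *Vegfa*, the main angiogenic factor, had 72.4, 73.9 and 103 CPM in the controls and 117, 107 and 104 CPM with SCFA (log2 fold change 0.40 ± 0.13, adjusted p = 0.0562), so that control replicate 3 nearly reached the SCFA libraries, and its call was lost without control replicate 1, control replicate 2 or SCFA replicate 3. *Pgf*, placental growth factor, had 2.06, 1.78 and 2.84 CPM in the controls and 0.997, 0.964 and 1.39 CPM with SCFA (log2 fold change -0.99 ± 0.32, adjusted p = 0.0576), and the receptor *Kdr* 83.02, 77.6 and 75.9 CPM in the controls and 62.2, 71.2 and 75.8 CPM with SCFA (adjusted p = 0.241). The count of 2 was 0 without control replicate 1, control replicate 2, SCFA replicate 1 or SCFA replicate 3, 1 without control replicate 3 and 5 without SCFA replicate 2. In the BMP and TGF-beta pathway, 2 of 25 genes rose and 2 fell. *Bmp2* had 10.3, 9.89 and 14.7 CPM in the controls and 4.28, 6.52 and 6.16 CPM with SCFA (log2 fold change -1.04 ± 0.21, adjusted p = 0.0130). *Id1*, a target of BMP signalling, had 25.1, 24.9 and 21.5 CPM in the controls and 14.5, 12.2 and 10.5 CPM with SCFA (log2 fold change -0.94 ± 0.15, adjusted p = 0.00670), both without overlap, while the receptors *Bmpr2* and *Tgfbr1* rose (log2 fold change 0.48 ± 0.10, adjusted p = 0.0132 and log2 fold change 0.61 ± 0.15, adjusted p = 0.0229). The number that rose was 1 without control replicate 2, and the number that fell 5 without SCFA replicate 2. Both numbers were 0 in the single fit and 1 with the run of columns as a block. In the Notch pathway 4 of 16 genes rose and 2 fell. *Jag1*, a Notch ligand, had 104, 103 and 126 CPM in the controls and 223, 149.9 and 193 CPM with SCFA (log2 fold change 0.76 ± 0.14, adjusted p = 0.00934) and was called under all 17 alternatives, *Dll1* and the effector *Rbpj* rose by 0.50 and 0.39, and *Lfng*, which modifies Notch, fell by 0.66 on the log2 scale. The number of Notch genes that rose was 2 without control replicate 1 and 1 without control replicate 2 or SCFA replicate 3, and the number that fell 1 without control replicate 1 or control replicate 2 and 4 without SCFA replicate 2.

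Microglial genes were lower in part. Of 43 members 36 were tested, 8 fell and 0 rose, and the median log2 fold change was -0.38. *Csf1r*, the receptor on which microglia depend, had 19.3, 21.6 and 21.1 CPM in the controls and 9.67, 16.7 and 12.7 CPM with SCFA (log2 fold change -0.67 ± 0.18, adjusted p = 0.0269). *Trem2* and its partner *Tyrobp* had 4.93, 6.21 and 5.44 CPM in the controls and 2.99, 4.26 and 3.64 CPM with SCFA (log2 fold change -0.60 ± 0.22, adjusted p = 0.0746) and 4.24, 4.92 and 5.32 CPM in the controls and 2.52, 3.57 and 3.16 CPM with SCFA (log2 fold change -0.64 ± 0.23, adjusted p = 0.0709). *Ctsd*, a lysosomal protease found in many cell types, had 325, 317 and 316 CPM in the controls and 223, 271 and 229 CPM with SCFA (log2 fold change -0.41 ± 0.10, adjusted p = 0.0241). The libraries of the groups did not overlap for these genes, and SCFA replicate 1 was the lowest for each of them. The homeostatic markers *Cx3cr1*, *P2ry12* and *Tmem119* had log2 fold changes of -0.28, -0.43 and -0.80 (adjusted p = 0.493, 0.304 and 0.138), with overlapping libraries, and *Tmem119* passed without SCFA replicate 2 (adjusted p = 0.0291). Among scavenger and phagocytic receptors, 2 of 8 tested fell, *Scarb1* with 146, 144 and 139 CPM in the controls and 95.6, 134 and 108 CPM with SCFA (log2 fold change -0.34 ± 0.12, adjusted p = 0.0667) and *Stab1* (log2 fold change -0.62 ± 0.24, adjusted p = 0.0941), *Mertk* was not called (log2 fold change 0.08 ± 0.18, adjusted p = 0.797), and *Msr1* had 2 to 9 counts and was not tested. The call of *Scarb1* was lost in the single fits and on leaving out any library but SCFA replicate 2 (adjusted p = 0.1002 to 0.217). Its CPM lay above those of *Csf1r*, *Trem2* and *Tyrobp* in every library, and the cell type its reads came from was not tested. The count of 8 was 3 without control replicate 1 or control replicate 3, 0 without control replicate 2, 5 without SCFA replicate 1 and 2 without SCFA replicate 3. It was 0 in the single fit, and also 0 with the run of columns as a block.

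In the complement and antigen presentation list, 2 of 27 tested genes rose and 3 fell. *C1qa* had 15.7, 17.7 and 16.7 CPM in the controls and 6.62, 11.2 and 9.48 CPM with SCFA (log2 fold change -0.87 ± 0.18, adjusted p = 0.0134), whereas *C1qb* and *C1qc*, which encode the other chains of C1q, had log2 fold changes of -0.28 and -0.23 (adjusted p = 0.152 and 0.290). *Cd59a*, which blocks the membrane attack complex, rose with 71.6, 68.1 and 65.8 CPM in the controls and 116, 96.6 and 109 CPM with SCFA (log2 fold change 0.65 ± 0.10, adjusted p = 0.00670). *Cfp*, properdin, had 11.3, 14.3 and 18.7 CPM in the controls and 37.9, 22.9 and 21.1 CPM with SCFA (log2 fold change 0.88 ± 0.22, adjusted p = 0.0241). The count of 2 was 1 without control replicate 1 or control replicate 2, and the count of 3 was 1 without control replicate 1 and 6 without SCFA replicate 2. Among interferon and cytokine genes, 2 of 25 tested rose, *Ifit1* with 4.30, 5.53 and 4.85 CPM in the controls and 9.03, 6.75 and 10.1 CPM with SCFA (log2 fold change 0.82 ± 0.20, adjusted p = 0.0217) and *Stat2* (log2 fold change 0.42 ± 0.14, adjusted p = 0.0580). *Cx3cl1*, the neuronal ligand of the microglial receptor *Cx3cr1*, fell with 89.9, 95.7 and 91.6 CPM in the controls and 43.97, 80.3 and 59.3 CPM with SCFA (log2 fold change -0.59 ± 0.16, adjusted p = 0.0320). The number that rose was 1 without control replicate 1 or control replicate 2, 4 without control replicate 3, 5 without SCFA replicate 2 and 0 without SCFA replicate 3. *Il1b*, *Il6*, *Tnf* and *Ccl2* had at most 4 counts in any of the 6 libraries and were not tested.

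Müller glia, which span the retina and support its neurons, had 11 lower and 2 higher genes among 34 tested. *Car14*, a carbonic anhydrase, had 67.8, 59.1 and 67.6 CPM in the controls and 37.9, 45.8 and 47.6 CPM with SCFA (log2 fold change -0.57 ± 0.11, adjusted p = 0.0117). *Gpr37* had 116, 122 and 109.7 CPM in the controls and 87.99, 92.4 and 86.8 CPM with SCFA (log2 fold change -0.38 ± 0.09, adjusted p = 0.0201). *Nes*, nestin, had 8.05, 10.2 and 8.22 CPM in the controls and 3.99, 6.30 and 3.48 CPM with SCFA (log2 fold change -0.94 ± 0.23, adjusted p = 0.0207). The glutamate transporter *Slc1a3* and the potassium channel *Kcnj10* fell by 0.28 and 0.44 on the log2 scale. *Sox9*, a glial transcription factor, and *Edn2*, an endothelin of stressed photoreceptors, rose (log2 fold change 0.41 ± 0.14, adjusted p = 0.0628 and log2 fold change 0.48 ± 0.14, adjusted p = 0.0365). *Glul* did not pass the test (log2 fold change -0.07 ± 0.10, adjusted p = 0.679), nor did *Gfap*, the gliosis marker, with 37.4, 50.8 and 39.9 CPM in the controls and 20.9, 48.4 and 26.5 CPM with SCFA (log2 fold change -0.42 ± 0.24, adjusted p = 0.246), although *Gfap* passed as lower without SCFA replicate 2 (adjusted p = 0.00111). The count of 11 was 6 without control replicate 1 or control replicate 3, 2 without control replicate 2, 7 without SCFA replicate 1 and 3 without SCFA replicate 3, and 7 with the GC trend removed. It was 0 in the single fit, or 1 with the run of columns as a block. The count of 2 was 0 without control replicate 1, control replicate 2 or SCFA replicate 3 and 1 without control replicate 3 or SCFA replicate 2.

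Photoreceptor lists had shares of calls near that of all genes tested (24.6%). In rods 5 of 30 genes rose and 1 fell, and the median log2 fold change was 0.09. All 3 SCFA libraries lay above all controls for 9 rod genes and below them for 3. Rod genes took 11.9%, 11.3% and 10.7% of all counts in the controls and 11.7%, 13.04% and 13.2% with SCFA (exact permutation p = 0.2). Over counts without mitochondrial genes these shares were 12.6%, 12.1% and 11.3% against 12.8%, 13.8% and 14.1%, and the groups did not overlap. The exact permutation p was then 0.1, the smallest possible. *Rgs9bp*, which speeds the recovery of the light response, had 713, 631 and 757 CPM in the controls and 937, 936 and 979 CPM with SCFA (log2 fold change 0.44 ± 0.11, adjusted p = 0.0202). *Pde6a*, a subunit of the phosphodiesterase, had 2160.4, 1791 and 1777 CPM in the controls and 2254, 2665 and 2823 CPM with SCFA (log2 fold change 0.43 ± 0.13, adjusted p = 0.0385). The number of rod genes that rose was 1 without control replicate 2, 9 without SCFA replicate 1 and 3 without SCFA replicate 3, and the number that fell 0 without control replicate 1, control replicate 2 or SCFA replicate 3, 2 without control replicate 3 and 5 without SCFA replicate 2. In cones 2 of 16 genes rose, *Thrb* and *Arr3* (log2 fold change 0.41 ± 0.10, adjusted p = 0.0237 and log2 fold change 0.40 ± 0.14, adjusted p = 0.0691), and 2 fell, *Cnga3* and *Ccdc136* (log2 fold change -0.41 ± 0.13, adjusted p = 0.05004 and log2 fold change -0.32 ± 0.10, adjusted p = 0.0431). In cones the higher genes were 1 without control replicate 1, SCFA replicate 1 or SCFA replicate 3 and 0 without control replicate 2, and the lower genes 1 without control replicate 1 or SCFA replicate 1, 0 without control replicate 2 or SCFA replicate 3 and 4 without SCFA replicate 2. Of 16 genes of the ribbon synapse 4 rose and 0 fell, *Pclo*, *Rims2*, *Cacna2d4* and *Cplx4*, by 0.26 to 0.43 on the log2 scale, and 0 were called without control replicate 1, control replicate 2 or SCFA replicate 3. Of 25 transmitter receptor genes 3 rose and 3 fell. *Gria2*, the AMPA receptor subunit that limits calcium entry, had 49.96, 43.8 and 62.2 CPM in the controls and 108, 72.6 and 78.4 CPM with SCFA (log2 fold change 0.73 ± 0.16, adjusted p = 0.0146). *Grin1*, the common NMDA receptor subunit, had 60.9, 69.3 and 59.6 CPM in the controls and 39.6, 51.1 and 51.1 CPM with SCFA (log2 fold change -0.42 ± 0.12, adjusted p = 0.0332). Receptor genes that rose were 1 without control replicate 2 or SCFA replicate 1 and 5 without SCFA replicate 2, and those that fell 0 without control replicate 2, 1 without control replicate 3 or SCFA replicate 3 and 6 without SCFA replicate 2.

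The respiratory chain is encoded in part by the mitochondrial and in part by the nuclear genome. Of 13 mRNAs of the mitochondrial chromosome 6 rose and 0 fell, with a median log2 fold change of 0.51, and of 82 nuclear genes of oxidative phosphorylation 3 rose and 18 fell, with a median of -0.11. Mitochondrial mRNAs took 4.71%, 5.43% and 4.96% of all counts in the controls and 7.91%, 4.86% and 6.51% with SCFA, so that SCFA replicate 2 lay among the controls (exact permutation p = 0.3). *mt-Nd4*, a subunit of complex I, had 3549, 4033 and 3729 CPM in the controls and 9015, 4326 and 7316 CPM with SCFA (log2 fold change 0.87 ± 0.21, adjusted p = 0.0195). *mt-Co2*, a subunit of complex IV, had 88.7, 98.5 and 91.9 CPM in the controls and 189.6, 132 and 148 CPM with SCFA (log2 fold change 0.75 ± 0.13, adjusted p = 0.00790). *mt-Atp6* had 91.1, 133 and 96.96 CPM in the controls and 839, 117 and 140.3 CPM with SCFA (log2 fold change 1.77 ± 0.56, adjusted p = 0.0504), and without SCFA replicate 1 its log2 fold change was 0.26 (adjusted p = 0.208). With the GC trend removed, 2 mitochondrial mRNAs rose, 1 fell and the median was 0.15. The count of 6 was 3 without control replicate 1 or control replicate 3, 2 without control replicate 2 and 10 without SCFA replicate 2.

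Of 17 tested mitochondrial tRNA and rRNA genes 4 fell, all of them tRNAs. *mt-Tl1*, a leucine tRNA, had 26.6, 30.97 and 24.7 CPM in the controls and 14.8, 13.6 and 10.5 CPM with SCFA (log2 fold change -1.08 ± 0.15, adjusted p = 0.00670), and *mt-Tn*, *mt-Tw* and *mt-Ty* had log2 fold changes of -0.79, -0.99 and -0.98. With the GC trend removed 9 fell. Among nuclear genes, *Atp5b*, the catalytic subunit of the ATP synthase, had 1729.5, 1695 and 1548 CPM in the controls and 825, 1298 and 1009 CPM with SCFA (log2 fold change -0.67 ± 0.15, adjusted p = 0.0165). *Cox4i1*, a subunit of complex IV, had 453, 511 and 470.2 CPM in the controls and 337, 358 and 305 CPM with SCFA (log2 fold change -0.52 ± 0.10, adjusted p = 0.0125). The libraries of the groups did not overlap for 30 lower genes of this list, and 59 of 82 log2 fold changes were below 0. The count of 18 was 4 without control replicate 2 and 8 without SCFA replicate 3, and the count of 3 was 1 without control replicate 1 or SCFA replicate 1, 0 without control replicate 2 and 9 without SCFA replicate 2. In the single fit 0 of the nuclear genes fell, or 4 with the run of columns as a block.

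Of 76 cytosolic ribosomal protein genes 22 fell and 1 rose, with a median log2 fold change of -0.18. *Rpl3* had 722, 736 and 647 CPM in the controls and 391, 480.0 and 411 CPM with SCFA (log2 fold change -0.71 ± 0.11, adjusted p = 0.00670). *Rps6* had 338, 386 and 335 CPM in the controls and 212, 235 and 199 CPM with SCFA (log2 fold change -0.71 ± 0.11, adjusted p = 0.00670). *Rpsa*, the laminin receptor, had 863, 976 and 804 CPM in the controls and 640.2, 589 and 518 CPM with SCFA (log2 fold change -0.60 ± 0.12, adjusted p = 0.0117). Many of these genes have processed pseudogenes that can share their reads. Their mRNAs together took 2.91% ± 0.18 of the counts in the controls and 2.46% ± 0.30 with SCFA (SD, n = 3; exact permutation p = 0.2), where SCFA replicate 1 had 2.80%. The count of 22 was 10 without control replicate 1, 4 without control replicate 2, 42 without SCFA replicate 1 and 5 without SCFA replicate 3, and 17 with the GC trend removed. It was 0 in the single fit, or 2 with the run of columns as a block.

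The receptors for SCFA and related acids, *Ffar2*, *Ffar3*, *Hcar2*, *Hcar1*, *Olfr78* and *Olfr558*, all had too few counts to be tested, with at most 1 count per library for *Ffar2* and *Ffar3*. Of 6 transporter genes tested, 2 rose and 0 fell. *Slc16a1*, the monocarboxylate transporter MCT1, had 280.1, 235 and 217 CPM in the controls and 337, 296 and 284 CPM with SCFA (log2 fold change 0.33 ± 0.12, adjusted p = 0.0749). *Slc16a7*, MCT2, had 6.42, 6.33 and 5.44 CPM in the controls and 10.6, 9.02 and 8.20 CPM with SCFA (log2 fold change 0.61 ± 0.17, adjusted p = 0.0348). The transporter count of 2 was 0 without control replicate 2 and 1 without SCFA replicate 3, and 1 with the GC trend removed. Of 17 tested genes of SCFA and ketone metabolism 4 fell and 0 rose. *Fasn*, fatty acid synthase, had 154, 160.3 and 139 CPM in the controls and 89.2, 116 and 97.4 CPM with SCFA (log2 fold change -0.59 ± 0.11, adjusted p = 0.0107), and *Acly*, which makes cytosolic acetyl-CoA, fell by 0.32 on the log2 scale. The count of 4 was 2 without control replicate 1, control replicate 2 or control replicate 3 and 1 without SCFA replicate 3, 0 in the single fit and 1 with the run of columns as a block. Of 11 histone deacetylases 2 fell and 1 rose. *Hdac11* had 90.6, 88.7 and 83.8 CPM in the controls and 46.5, 66.8 and 53.3 CPM with SCFA (log2 fold change -0.66 ± 0.12, adjusted p = 0.00985). *Hdac5* had 337, 372 and 344 CPM in the controls and 270.5, 277 and 246 CPM with SCFA (log2 fold change -0.41 ± 0.10, adjusted p = 0.0210). *Hdac9* rose with 51.7, 52.9 and 52.2 CPM in the controls and 60.5, 68.1 and 68 CPM with SCFA (log2 fold change 0.33 ± 0.09, adjusted p = 0.0357). *Hdac1*, *Hdac2* and *Hdac3* had log2 fold changes of 0.10, 0.03 and -0.12 and were not called. The deacetylases that fell were 1 without control replicate 2 or SCFA replicate 3, and *Hdac9* was not called without control replicate 1, control replicate 2 or SCFA replicate 3, nor with the GC trend removed.

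Among stress pathways, 8 of 20 tested p53 target genes fell and 1 rose. *Cdkn1a*, the cell cycle inhibitor p21, had 17.7, 15.6 and 13.3 CPM in the controls and 5.39, 6.75 and 4.34 CPM with SCFA (log2 fold change -1.5 ± 0.19, adjusted p = 0.00472) and was called under all 17 alternatives. *Plk2* had 43.1, 38.2 and 34.5 CPM in the controls and 22.04, 21.3 and 25.02 CPM with SCFA (log2 fold change -0.76 ± 0.12, adjusted p = 0.00703), and the death genes *Fas* and *Pmaip1* fell by 1.02 and 1.13 on the log2 scale from low levels. *Trp53inp1*, also a p53 target, rose with 18.8, 21.9 and 23.3 CPM in the controls and 32.7, 31.3 and 31.1 CPM with SCFA (log2 fold change 0.57 ± 0.12, adjusted p = 0.0134). The count of 8 was 4 without control replicate 1, 2 without control replicate 2 or SCFA replicate 3 and 5 without control replicate 3, and 5 with the GC trend removed. Of 14 antioxidant genes controlled by NRF2 3 fell and 1 rose, and the largest change was in *Gpx1*, glutathione peroxidase, with 57.3, 63.6 and 59.7 CPM in the controls and 28.8, 40.3 and 30.4 CPM with SCFA (log2 fold change -0.86 ± 0.13, adjusted p = 0.00670), followed by *Srxn1*, sulfiredoxin, with 98.1, 98.9 and 94.9 CPM in the controls and 53.2, 70.9 and 59.6 CPM with SCFA (log2 fold change -0.67 ± 0.11, adjusted p = 0.00756). *Gclc*, a subunit of the enzyme that starts glutathione synthesis, rose by 0.25 on the log2 scale, a call that was lost on leaving out any library but SCFA replicate 2, and *Nqo1* was not called (log2 fold change -0.33 ± 0.20, adjusted p = 0.266). Of 13 chaperone genes 4 fell, among them *Hspb8* (log2 fold change -0.57 ± 0.14, adjusted p = 0.0220), and of 10 glucocorticoid and metallothionein genes 3 fell, among them *Mt1* with 176, 152 and 185 CPM in the controls and 132, 127 and 118 CPM with SCFA (log2 fold change -0.44 ± 0.10, adjusted p = 0.0184), with a count of 5 without SCFA replicate 2. The number of chaperone genes that fell was 1 without control replicate 1, SCFA replicate 1 or SCFA replicate 3, 0 without control replicate 2, 2 without control replicate 3 and 7 without SCFA replicate 2. The glucocorticoid and metallothionein count of 3 was 2 without control replicate 2 or SCFA replicate 3. It was 1 in the single fit, and also 1 with the run of columns as a block.

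Of 9 thyroid hormone genes 3 fell and 1 rose. *Dio2*, which makes active thyroid hormone, had 81.2, 67.9 and 78.9 CPM in the controls and 17.9, 39.4 and 33.9 CPM with SCFA (log2 fold change -1.32 ± 0.21, adjusted p = 0.00695), and the receptors moved apart, *Thra* with 241, 248 and 218 CPM in the controls and 144, 193 and 166 CPM with SCFA (log2 fold change -0.49 ± 0.12, adjusted p = 0.0196) and *Thrb* with 67.99, 54.3 and 59.3 CPM in the controls and 84.1, 78.1 and 78.5 CPM with SCFA (log2 fold change 0.41 ± 0.10, adjusted p = 0.0237). The count of 3 was 5 without SCFA replicate 2 and 2 without control replicate 2. It was 0 in the single fit, or 1 with the run of columns as a block. The gene that rose was not called without control replicate 2 nor in either single fit. In cholesterol and lipid transfer, 7 of 26 genes fell and 2 rose. *Srebf2*, a regulator of cholesterol synthesis, had 136, 131 and 136 CPM in the controls and 84.9, 111 and 95.1 CPM with SCFA (log2 fold change -0.47 ± 0.11, adjusted p = 0.0179). *Pltp*, the phospholipid transfer protein, had 46.9, 32.4 and 32.4 CPM in the controls and 12.2, 22.98 and 18.3 CPM with SCFA (log2 fold change -1.06 ± 0.21, adjusted p = 0.0115). SCFA replicate 2 was the highest of the SCFA libraries for both. The fatty acid-binding genes moved apart, *Fabp4* with 5.99, 6.94 and 8.34 CPM in the controls and 19.5, 8.68 and 17.3 CPM with SCFA (log2 fold change 1.09 ± 0.26, adjusted p = 0.0187) and *Fabp5* with 38.6, 39.3 and 36.4 CPM in the controls and 28.5, 27.9 and 26.5 CPM with SCFA (log2 fold change -0.46 ± 0.10, adjusted p = 0.0162). The count of 7 was 3 without control replicate 1 or SCFA replicate 3 and 4 without control replicate 2, and the count of 2 was 1 without control replicate 1, control replicate 3, SCFA replicate 1 or SCFA replicate 3 and 0 without control replicate 2. Both counts were 0 in the single fit, and also 0 with the run of columns as a block.

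Of 19 clock genes 4 rose and 6 fell. *Rora* and *Rorb*, nuclear receptors that activate *Arntl*, both rose. *Rora* had 124, 99.4 and 95.9 CPM in the controls and 155, 144 and 158 CPM with SCFA (log2 fold change 0.52 ± 0.11, adjusted p = 0.0152). *Rorb* had 163, 167 and 209 CPM in the controls and 279, 236 and 302 CPM with SCFA (log2 fold change 0.60 ± 0.13, adjusted p = 0.0138). The repressors *Cry1*, *Cry2* and *Per1* fell by 0.35, 0.48 and 0.40 on the log2 scale. *Nfil3*, an output repressor, had 24.5, 24.6 and 22.8 CPM in the controls and 10.6, 15.5 and 10.8 CPM with SCFA (log2 fold change -0.96 ± 0.16, adjusted p = 0.00756) and was called under all 17 alternatives. The clock genes that rose were 2 without control replicate 1, SCFA replicate 1 or SCFA replicate 3 and 1 without control replicate 2, and 2 with the GC trend removed. Those that fell were 2 without control replicate 2. The hour at which the retinas were collected is not given in the sources used here. Of 64 tested potassium channel genes 17 fell and 2 rose, with *Kcnh2* at 87.6, 80.01 and 90.2 CPM in the controls and 46.8, 62.6 and 53 CPM with SCFA (log2 fold change -0.67 ± 0.11, adjusted p = 0.00790) and *Kcnc4* at 24.4, 19.2 and 19.8 CPM in the controls and 6.80, 16.4 and 6.75 CPM with SCFA (log2 fold change -1.08 ± 0.28, adjusted p = 0.0247), and with the GC trend removed 9 fell. The count of 17 was 7 without control replicate 1 or SCFA replicate 1, 4 without control replicate 2, 11 without control replicate 3, 27 without SCFA replicate 2 and 3 without SCFA replicate 3, and the count of 2 was 1 without control replicate 1 or SCFA replicate 1 and 0 without control replicate 2, control replicate 3 or SCFA replicate 3.

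Of 42 tested immediate early genes 23 fell and 1 rose, among them *Klf4* with 11.9, 12.5 and 8.05 CPM in the controls and 1.29, 4.14 and 2.46 CPM with SCFA (log2 fold change -2.03 ± 0.32, adjusted p = 0.00670) and *Fos* with 66.99, 64.3 and 62.7 CPM in the controls and 29.5, 22.1 and 42.6 CPM with SCFA (log2 fold change -1.04 ± 0.18, adjusted p = 0.00790). The count of 23 was 8 in the single fit and 15 with the run of columns as a block, and it moved by less than 1.5 times on leaving out any library. Of 47 tested clustered protocadherin genes 3 rose and 1 fell, and their shared exons leave the counts of single members uncertain. The number that rose was 0 without control replicate 1 or control replicate 2, 6 without SCFA replicate 2 and 1 without SCFA replicate 3, and the number that fell 0 without control replicate 1, control replicate 2 or SCFA replicate 3 and 5 without SCFA replicate 2. Of 20 tested histone genes 3 rose and 2 fell, among them *Hist1h1c*, a linker histone, with 217, 245 and 159.7 CPM in the controls and 89.4, 137 and 98.4 CPM with SCFA (log2 fold change -0.94 ± 0.17, adjusted p = 0.00968). The higher histone genes were 5 without SCFA replicate 2, and the lower ones 1 without control replicate 1, control replicate 2 or SCFA replicate 3. In the single fit 1 histone gene rose and 1 fell, or 2 and 1 with the run of columns as a block. Of 10 cell division genes 1 rose, *Ccna2* (log2 fold change 0.46 ± 0.17, adjusted p = 0.0845), with a count of 0 without control replicate 1, control replicate 2, SCFA replicate 1 or SCFA replicate 3 and 2 without SCFA replicate 2. Of 7 tested myelin genes 1 rose and *Mal* fell (log2 fold change -0.58 ± 0.17, adjusted p = 0.0413), and 9 further members, such as *Mag* and *Mog*, had too few counts. The myelin gene that rose and *Mal* were both not called without control replicate 1, control replicate 2 or SCFA replicate 3. Of 8 blood genes 1 rose and 1 fell, both immunoglobulin genes, of which neither was called without control replicate 2 or SCFA replicate 3 and the higher also not without control replicate 1 or SCFA replicate 1, and haemoglobin took 0.00791% ± 0.00209 of the counts in the controls and 0.00799% ± 0.00196 with SCFA (SD, n = 3; exact permutation p = 1).

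More long non-coding RNA genes rose than fell. Of 1579 tested genes annotated in long non-coding classes, 292 rose and 36 fell. Among them were 457 lincRNA genes, of which 107 rose and 12 fell, and 314 genes of the provisional class TEC, of which 75 rose and 2 fell. Together these classes took 1.07%, 1.12% and 1.30% of the counts in the controls and 1.51%, 1.33% and 1.43% with SCFA (exact permutation p = 0.1, the smallest possible). Of 13 tested nuclear-retained RNAs, which stay at the sites of transcription or in nuclear bodies, 10 rose and 1 fell. *Malat1* had 542, 581 and 778 CPM in the controls and 896, 789 and 928 CPM with SCFA (log2 fold change 0.46 ± 0.14, adjusted p = 0.0419). *Neat1*, the scaffold of paraspeckles, had 15.7, 16.6 and 31.5 CPM in the controls and 32.2, 28.1 and 35.1 CPM with SCFA (log2 fold change 0.58 ± 0.22, adjusted p = 0.0874). *Mir124a-1hg*, the host of a neuronal microRNA, had 348, 374 and 512 CPM in the controls and 748, 586 and 769 CPM with SCFA (log2 fold change 0.77 ± 0.15, adjusted p = 0.0122). Control replicate 3 was the highest control for *Malat1*, *Neat1* and *Mir124a-1hg*, and it reached the SCFA range for *Neat1*. The strand setting of the counting is not given in the sources used here, so that reads of antisense and intronic genes cannot be told apart from those of the genes they overlap. With the GC trend removed, 227 long non-coding genes rose and 30 fell, and 7 nuclear-retained RNAs rose. With the length trend removed 6 nuclear-retained RNAs rose, and the median log2 fold change of that list went from 0.62 to 0.36. In the single fit 25 long non-coding genes and 0 nuclear-retained RNAs rose, or 116 and 1 with the run of columns as a block. The number of long non-coding genes that rose was 120 without control replicate 1, 72 without control replicate 2 and 119 without SCFA replicate 3, and 2 nuclear-retained RNAs rose without control replicate 1 and 2 without control replicate 2.

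The DEGs themselves were divided by annotation. Of 165 DEGs without an established name, 156 were higher with SCFA, and of 185 with one, 73 were higher and 112 lower. Among the unnamed, *Gm17066*, a processed transcript, had 21.3, 26.3 and 19.2 CPM in the controls and 145, 45.1 and 70.5 CPM with SCFA (log2 fold change 1.96 ± 0.32, adjusted p = 0.00756). *Gm12940* had 17.3, 17.8 and 21.6 CPM in the controls and 66.9, 33.2 and 53.9 CPM with SCFA (log2 fold change 1.44 ± 0.20, adjusted p = 0.00670). *Gm23935*, annotated as a microRNA gene, fell with 1721, 1518 and 1367 CPM in the controls and 459, 921 and 682 CPM with SCFA (log2 fold change -1.16 ± 0.20, adjusted p = 0.00790).

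The named DEGs given here were on none of the lists, and their groups did not overlap. *Klhl28*, a BTB-Kelch protein, had 17.8, 18.5 and 22.8 CPM in the controls and 45.1, 31.8 and 41.96 CPM with SCFA (log2 fold change 1.01 ± 0.15, adjusted p = 0.00670). *Kbtbd8*, of the same family, had 4.43, 5.04 and 6.45 CPM in the controls and 14.5, 9.76 and 12.4 CPM with SCFA (log2 fold change 1.20 ± 0.20, adjusted p = 0.00786). *Ikzf5*, a zinc finger factor of the Ikaros family, had 6.18, 7.56 and 6.15 CPM in the controls and 32.6, 13.7 and 20.1 CPM with SCFA (log2 fold change 1.74 ± 0.26, adjusted p = 0.00670). *Insl5*, a relaxin-family peptide, had 3.24, 4.61 and 5.50 CPM in the controls and 19.3, 8.74 and 11.04 CPM with SCFA (log2 fold change 1.54 ± 0.28, adjusted p = 0.00958). SCFA replicate 1 was the highest and replicate 2 the lowest of the SCFA libraries for all of these genes. Among the lower genes, *Ptprn2*, a protein of dense-core vesicles, had 48.2, 37.3 and 32.8 CPM in the controls and 5.57, 26.3 and 11.5 CPM with SCFA (log2 fold change -1.45 ± 0.37, adjusted p = 0.0243). *Selenop*, the selenium carrier, had 23.5, 25.4 and 25.4 CPM in the controls and 4.40, 19.6 and 7.77 CPM with SCFA (log2 fold change -1.22 ± 0.36, adjusted p = 0.0399). *Sept5*, a septin of nerve terminals, had 41.4, 45.3 and 47.1 CPM in the controls and 15.5, 28.4 and 18.7 CPM with SCFA (log2 fold change -1.09 ± 0.18, adjusted p = 0.00756). *Itm2a*, *Tmem132a*, *Trarg1*, *Rgs12* and *Lgi1* fell by 1.01 to 1.49 on the log2 scale. Here too SCFA replicate 2 was the SCFA library nearest to the controls for *Ptprn2*, *Selenop* and *Sept5*. *Olig3*, a transcription factor of neural progenitors, rose from a low level, with 1.56, 0.799 and 0.769 CPM in the controls and 2.64, 1.65 and 4.02 CPM with SCFA (log2 fold change 1.41 ± 0.40, adjusted p = 0.0356).

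The response at 14 dpl was set beside those of males at 7 and 3 dpl and of females at 14 dpl, each against its own controls, in a single fit of 43 libraries with group and run of columns. In that fit 596 of 18197 genes rose and 702 fell in males at 14 dpl, 2391 and 1656 at 7 dpl, 3 and 1 at 3 dpl, and 0 and 0 in females at 14 dpl. The difference between responses, tested as an interaction, gave 0 DEGs for 14 against 7 dpl, 0 for 14 against 3 dpl and 0 for males against females, with 2171 (11.9%), 637 (3.50%) and 1822 (10%) genes at an unadjusted p under 0.05. No gene below is therefore called different between times or sexes by this test. The female control and SCFA libraries at 14 dpl were split over both runs of columns, and all 7 female libraries were used. Both male groups at 3 dpl were split as well. Of the males at 7 dpl, the SCFA libraries lay in both runs and the controls in the first alone. All 8 libraries of males at 7 dpl were used as well. The paper states fewer libraries for both female groups at 14 dpl, after quality assessment, and for the male SCFA group at 7 dpl. The sets used here therefore differ from those of the study, and a fit restricted to its sets was not run.

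*Rpe65* had a log2 fold change of -1.61 in males at 14 dpl, 0.08 at 7 dpl, 0.06 at 3 dpl and -0.45 in females at 14 dpl. *Rgr* had -1.19, 0.11, -0.05 and -0.30 in the same order. *Isl2* had -0.87, -0.39, -0.49 and -0.13, and the list of ganglion cell genes medians of -0.51, -0.17, -0.36 and -0.02. *Dio2* had -1.33, 0.78, -1.31 and -0.77, and its difference between 14 and 7 dpl had an adjusted p of 0.141, which was the smallest of that test and was shared with *Klf10*, *Rgs5* and *Olig3*. *Cd59a* and *Ikzf5* were higher in males at 14 dpl (0.64 and 1.73) and at 7 dpl (0.69 and 2.59), both past the test, and had -0.02 and -0.14 in females. *Kcnj8* had -1.33, -0.39, -0.36 and -0.45. Lens genes, with medians of -1.42, 1.43, 0.60 and -1.83, gave 0 calls in this fit.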

How the data were processed

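Bulk retinal RNA was sequenced on a NovaSeq instrument as paired reads of 150 bases. The authors deposited a table of raw read counts per gene, with 1 column per library and 0 columns of other samples. The submitters' notes name DESeq2 and the mm10 build, and the aligner, the counter and its strand setting are not given in the sources used here. Groups were taken from the sample titles, since the treatment field reads control for all libraries. Of 22 libraries labelled female, 1 had counts of Y-linked genes over 3, and it entered only the fit of 43 libraries.

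Here, genes with low counts were removed (filterByExpr), libraries were scaled by TMM, and groups were compared with edgeR 4.0.16 (quasi-likelihood test, R 4.3.3) with Benjamini-Hochberg adjustment over all 16039 genes tested. The standard error was taken as the fold change over the root of F. Shares were compared with a two-sided exact permutation test (Python 3.11.15). Each library was a pool of different mice, so that the spread between libraries includes that between pools. On simulated counts for this comparison (16159 genes) the edgeR test called 99% of 100 genes changed by 1.5 on the log2 scale and 100% of 100 genes changed by 2.5. The changed genes were drawn only from genes of higher counts. The spread followed the trend with abundance, and no GC or length trend was simulated. These shares therefore do not give the sensitivity for genes of few counts or for smaller changes. Responses at other times and in females came from a fit of 43 libraries in 12 groups with the run of columns (the first 31 and the last 12) as a block. GC content and length were those of the longest GENCODE transcript, and their trends were removed by a lowess curve per library (span 0.3). Alternatives were DESeq2 1.42.0, RLE factors, other filters, a robust fit, a single fit, a replicate block, and leaving out each library.

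Named genes were the members of 41 gene lists that passed the test, or the 3 with the smallest p where fewer passed, the 12 named DEGs of highest mean CPM in each direction on no list whose groups did not overlap, the 5 unnamed DEGs of highest mean CPM in each direction, the genes that the study names for this comparison, and the 3 most abundant members of each cell type list. Further members that did not pass were chosen after their values were seen. The comparison, the lists and their members were chosen with earlier results of these data known. Values of some genes are not reported here.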

Additional observations from a re-analysis of the deposited data

How the results depend on the processing

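Of 584 genes that passed the test and were DEGs or on a list, 0 changed direction under the alternatives run. Of 682 list members tested that did not pass, 260 did under at least 1 of them. The 584 genes were chosen because they passed in the main fit, and the alternatives share its libraries. A change of direction was therefore unlikely for them beforehand, and the 0 is no independent support. The 229 higher and 121 lower DEGs were 119 and 80 with DESeq2, 31 and 17 in the single fit of all 12 groups, 130 and 65 with the run of columns added as a block, and 1931 and 2021 with no threshold on the fold change. The higher DEGs were 117 with a minimum of 10 counts in every library and 147 at an adjusted p under 0.05. Leaving out 1 library gave 82 to 415 higher and 69 to 320 lower DEGs. The counts were 109 and 72 without control replicate 1, 82 and 69 without control replicate 2, 388 and 127 without control replicate 3, 415 and 320 without SCFA replicate 2, and 127 and 72 without SCFA replicate 3. The differences between responses, 0 DEGs each, were 256 (7 dpl), 52 (3 dpl) and 77 (females) with no filter on low counts, and 0 to 1 for 3 dpl on leaving out 1 library. The cause was not tested. The deviations of same-numbered control and SCFA libraries from their group means had correlations of -0.158, -0.0716 and 0.0564. With means of 3 libraries such values cannot show whether the replicate numbers mark a shared batch, and pairing is not stated. The replicate block gave 193 higher and 119 lower DEGs, and 5 for the difference from 7 dpl. Of the 584 genes, 141 had no adjusted p in DESeq2, and 22 of the others lost the call there. The call was lost for 127 with the GC trend removed, 384 without control replicate 2 and 534 in the single fit. Genes of few counts, such as *Fas* or *Col1a1*, were measured with the least precision.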
